A study of Mus musculus with 40 samples.

Results

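Brown fat and liver were compared by the small RNA of the whole tissue, before any pull-down, across all 1894 mature miRNA entries of the deposited table. The comparison used 10 of the 40 libraries of the series, chosen by their labels: 5 input libraries of brown fat and 5 input libraries of liver. All mice came from a cross of Tg(CAG-GFP,-Uprt)985Cdoe/J with Tg(Ucp1-cre)1Evdr/J, which is meant to place the enzyme UPRT in cells where the Ucp1 promoter drives Cre, the brown adipocytes. Both groups were male mice aged 8 to 12 weeks on standard chow that had received 4-thiouracil, the base that UPRT makes available for RNA, at 50 mg/kg into the peritoneum in 4 injections given every 48 h. The labels name no group without 4-thiouracil or without Cre and give no genotype for single animals, so brown fat and liver share genotype and treatment as far as they go. The 10 libraries came from 9 mice, and 1 mouse gave both tissues.

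MicroRNAs are short RNAs that sit in Argonaute proteins and repress messenger RNAs. The pairing is led by the seed, bases 2 to 8 of the miRNA, so miRNAs with the same seed can share targets even where their genes lie apart. A hairpin precursor gives 2 arms, 5p and 3p, of which one usually dominates. Brown fat burns lipid for heat in adipocytes rich in mitochondria, and its known miRNAs include the cluster of miR-193b and miR-365, linked to brown adipocyte differentiation, and miR-378a, encoded in an intron of the mitochondrial coactivator gene Ppargc1b. In the liver miR-122 is the main miRNA of hepatocytes and acts in lipid metabolism.

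The sequences on which the results below turn are given first, 5′ to 3′, with the seed in capitals. They were taken from RefSeq annotation of GRCm38.p6. The first set is of miRNAs higher in liver, together with those relatives that have the same or nearly the same sequence.
miR-192-5p: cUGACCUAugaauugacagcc
miR-215-5p: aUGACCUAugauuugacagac
miR-194-5p: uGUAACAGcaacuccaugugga
miR-148a-3p: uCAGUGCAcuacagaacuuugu
miR-148b-3p: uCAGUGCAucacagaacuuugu
miR-152-3p: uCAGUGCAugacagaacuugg
miR-101b-3p: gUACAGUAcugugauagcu
miR-101a-3p: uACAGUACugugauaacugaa
miR-21a-5p: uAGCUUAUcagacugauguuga
miR-31-5p: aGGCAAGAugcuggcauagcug

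The second set is of miRNAs higher in brown fat, with seed mates, and of miR-203-3p, the abundant arm of a hairpin of the brown adipocyte list that was not called itself.
miR-193b-3p: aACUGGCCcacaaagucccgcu
miR-193a-3p: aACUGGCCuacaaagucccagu
miR-365-3p: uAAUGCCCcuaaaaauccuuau
miR-708-5p: aAGGAGCUuacaaucuagcuggg
miR-28a-5p: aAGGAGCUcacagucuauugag
miR-10b-5p: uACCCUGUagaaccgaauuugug
miR-10a-5p: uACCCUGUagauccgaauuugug
miR-206-3p: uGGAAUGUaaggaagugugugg
miR-203-3p: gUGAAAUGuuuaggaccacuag

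Counting bases from 1 at the 5′ end, miR-10b-5p differs from miR-10a-5p by the single substitution U12A. miR-193b-3p differs from miR-193a-3p by U9C, A20G and G21C, and miR-215-5p from miR-192-5p by C1A, A12U and C20A. From miR-148a-3p, miR-148b-3p differs by C9U and U10C, and miR-152-3p by C9U, U10G and U20G. The miR-101 pair is offset by one base: the seed letters of miR-101a-3p stand at positions 3 to 9 of miR-101b-3p, so their seeds by position are not the same. The sources used here do not give how reads that match several such relatives were counted.

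The liver miRNA miR-192-5p lies at chr19:6264857-6264877 on the plus strand, in an intergenic stretch of the GENCODE M21 annotation, and a copy of miR-194-5p lies beside it at chr19:6264658-6264679. The brown fat miRNA miR-193b-3p lies at chr16:13449570-13449591 with a copy of miR-365-3p at chr16:13453895-13453916, both on the plus strand and both opposite an intron of the antisense gene Gm15738. miR-193a-3p and the other copy of miR-365-3p lie at chr11:79712009-79712030 and chr11:79726467-79726488, both intergenic. miR-10b-5p (chr2:74726074-74726096) lies in an intron of Hoxd3 and Hoxd4, and miR-10a-5p (chr11:96317186-96317208) is intergenic. miR-708-5p (chr7:96249450-96249472) is intronic in Tenm4 and its seed mate miR-28a-5p (chr16:24827868-24827889) is intronic in Lpp. miR-21a-5p (chr11:86584120-86584141, minus strand) overlaps an exon of Vmp1.

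The libraries held 968886 to 2121912 counts in brown fat and 675682 to 1129945 in liver, and 640 to 687 and 487 to 521 miRNA entries with a count. Mean Spearman correlations over entries, which are not independent replicates, were 0.954 to 0.974 with the libraries of the same tissue and 0.722 to 0.784 with those of the other tissue. Levels are given as counts per 1000000 counted reads (CPM) or as a percent of counts. The libraries of each tissue came from 5 separate mice, so p-values measure the spread between these mice, and all 10 libraries were in 1 sequencing pool. Reads carried no molecular identifier and were amplified by PCR, and the intervals and lower bounds given below cover counting error only.

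The counts of the liver libraries were held by far fewer miRNA entries than those of brown fat. In every liver library 2 entries held 50% of counts, against 4, 8, 6, 7 and 9 in the brown fat libraries 1 to 5. To reach 90% of counts took 15.4 ± 2.51 entries in liver and 37.2 ± 5.45 in brown fat (SD, n = 5 each). Entries that share reads, such as miR-1a-3p and miR-1b-5p, were counted separately here, which raises the numbers for brown fat. The ranges, 12 to 19 in liver and 30 to 45 in brown fat, did not overlap. An exact two-sided permutation test gave p = 0.00794 for both numbers, the smallest value that 5 against 5 libraries allow. In liver, miR-122-5p, miR-21a-5p, miR-192-5p and miR-148a-3p together made up 76.25% ± 3.46 of counts, and the same 4 made up 6.10% ± 2.15 in brown fat (SD, n = 5 each).

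**Figure D1:**
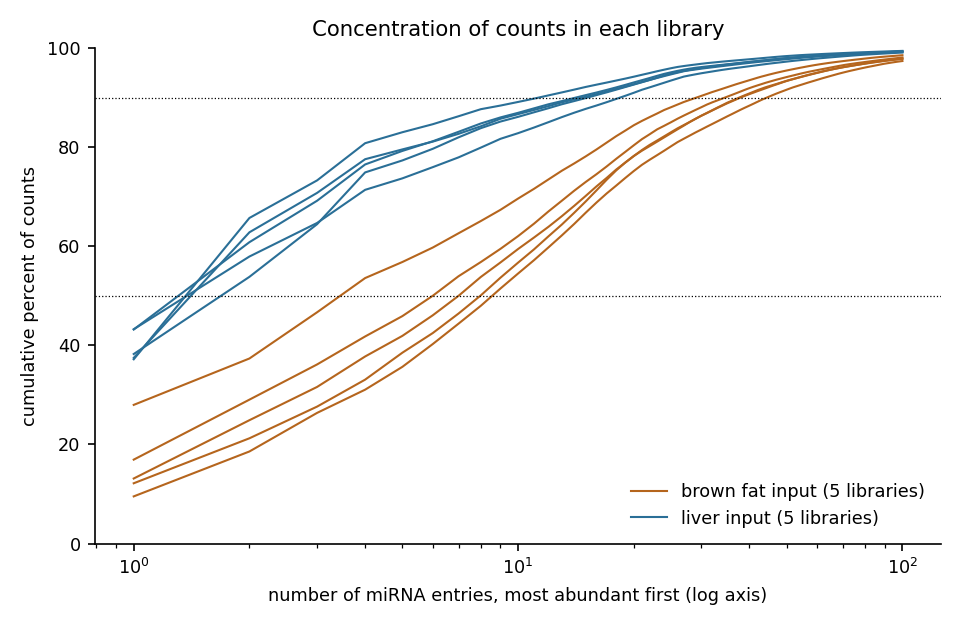
Cumulative percent of counts (vertical axis) held by the most abundant miRNA entries (number of entries on a log horizontal axis), 1 line for each library, brown for brown fat and blue for liver, with dotted lines at 50% and 90%. All 5 liver lines pass 50% at 2 entries, and the brown fat lines pass it at 4 to 9.

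This concentration bears on every direction given below. Where a few miRNAs fill most of a liver library, each of the others holds a smaller share of it, so the scaling between libraries sets where the value 0 lies. The tests used the trimmed mean of M values (TMM), whose factors were 1.23 to 2.11 in brown fat and 0.473 to 0.787 in liver, with edgeR's quasi-likelihood test and Benjamini-Hochberg adjustment at a threshold of 0.05. With total count as the only scaling, the median log2 fold change moved up by 1.40. A positive log2 fold change means higher in brown fat, on the TMM scale unless total count is named.

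Of 312 miRNA entries tested, 108 were higher in brown fat (34.6%) and 90 higher in liver (28.8%), so that 63.5% differed and the median log2 fold change was 0.05. With total count scaling 236 were higher in brown fat and 24 in liver. In CPM without further scaling, 181 entries had all 5 brown fat libraries above all 5 liver libraries (58.0% of those tested) and 20 had the reverse (6.41%). Calls were compared under TMM, under the median of ratios (relative log expression, RLE) and under total count. Of the 312 entries, 104 were higher in brown fat under all 3 scalings and 24 were higher in liver under all 3. A further 18 were higher in liver by TMM and higher in brown fat by total count, 163 were called under some of the scalings only, and 3 under none. For the 104 and the 24 the direction is the same under these 3 scalings. Fewer cells of a type and less RNA per cell cannot be told apart in such bulk samples.

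**Figure D2:**
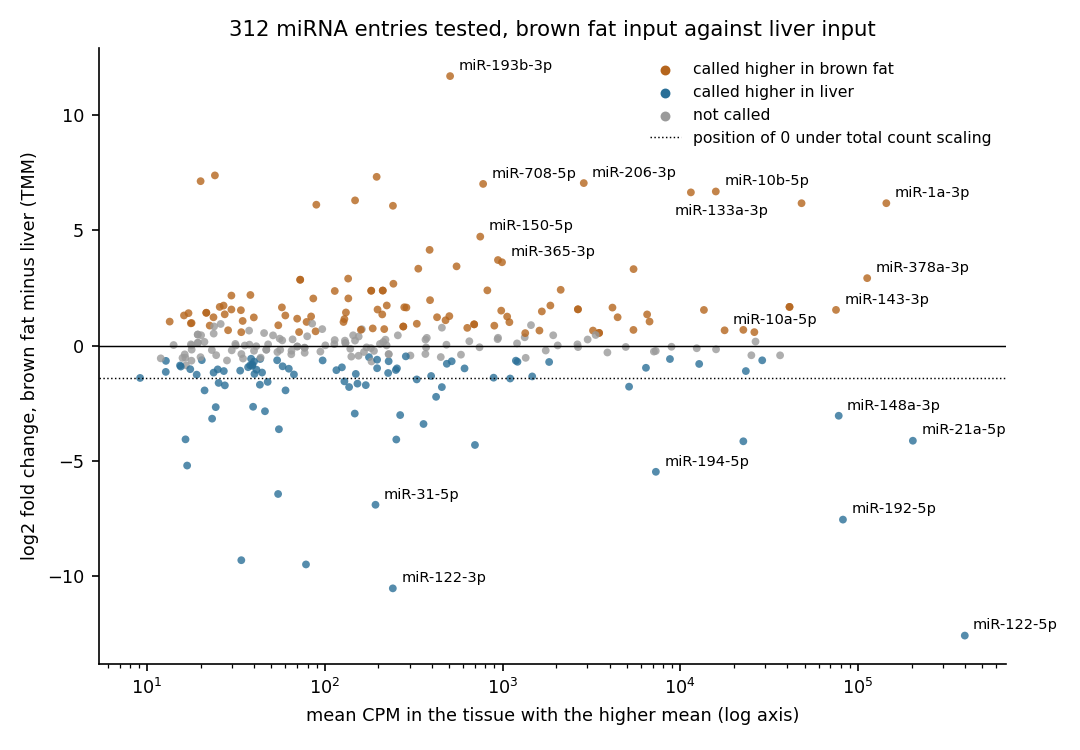
Log2 fold change, brown fat minus liver, on the TMM scale (vertical axis) against the mean CPM of the tissue with the higher mean (log horizontal axis) for the 312 entries tested, coloured by call, with the dotted line at the place of 0 under total count scaling, 1.40 lower. miR-122-5p lies lowest at -12.57, and the value of miR-193b-3p, drawn highest, depends on the prior count because it has 0 counts in liver.

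miR-122-5p made up 43.2%, 37.5%, 37.2%, 43.3% and 38.3% of counts in the liver libraries 1 to 5. In brown fat it stood at 161.2, 130.0, 180.8, 212.1 and 180.5 CPM. Every liver library was thus far above every brown fat library, with a ratio of the mean CPM of 2310, and the log2 fold change was -12.57 (SE 0.37, edgeR adjusted p = 1.35e-12). The muscle inputs of the same series held 169.5 ± 192.4 CPM and the hypothalamus inputs 3565 ± 7560 CPM (SD, n = 5 each), an SD above the mean in both. The other arm, miR-122-3p, had 1082 counts in liver and 2 in brown fat, a ratio of 2190 on the TMM scale (exact 95% interval 605 to 18100) and of 832 by total count (230 to 6880).

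miR-192-5p, a miRNA of liver and gut epithelium, was at 8.23% ± 1.37 of counts in liver and 0.12% ± 0.0151 in brown fat (SD, n = 5 each). Its liver libraries ran from 6.78% to 10.4% and its brown fat libraries from 0.102% to 0.137%. The log2 fold change was -7.54 (SE 0.29, edgeR adjusted p = 3.52e-11). Its neighbour miR-194-5p stood at 6408, 7761, 5388, 11390 and 5479 CPM in liver and at 253.5, 375.7, 412.3, 416.5 and 758.0 CPM in brown fat, with a log2 fold change of -5.47 (SE 0.24, edgeR adjusted p = 8.34e-11). miR-194-2-3p, the opposite arm of the copy next to miR-192, had -6.43 with 248 counts in liver and 11 in brown fat. miR-215-5p, which has the seed of miR-192-5p, was also higher in liver at -3.62 (SE 0.68). In CPM its libraries overlapped between the tissues, since brown fat library 2 held 49.54 CPM and the other brown fat libraries 1.559 to 6.428, against 29.6 to 120.5 CPM in liver. On the TMM scale all liver libraries lay above all brown fat libraries.

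miR-21a-5p, a miRNA found in many tissues and raised by growth and injury, was the miRNA with the next highest liver share after miR-122-5p. It made up 17.6%, 25.4%, 28.5%, 14.7% and 15.6% of liver counts and 1.75%, 3.97%, 1.54%, 6.15% and 3.49% of brown fat counts. The groups did not overlap, and the log2 fold change was -4.12 (SE 0.41, edgeR adjusted p = 6.08e-07). The entry miR-21c, which has the same seed, followed at 699.1 CPM in liver and 102.3 CPM in brown fat (-4.31). miR-148a-3p, abundant in hepatocytes, was also abundant in brown fat: 6.69% to 10.6% of counts in liver and 1.96% to 2.93% in brown fat, with a log2 fold change of -3.04 (SE 0.25, edgeR adjusted p = 7.71e-08). By total count the same difference was -1.59. Its other arm, miR-148a-5p, changed by nearly as much (-2.95).

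miR-101b-3p stood at 27310, 19790, 22150, 19710 and 24170 CPM in liver and at 2733, 3027, 3465, 3355 and 5106 CPM in brown fat, a log2 fold change of -4.15 (SE 0.24, edgeR adjusted p = 1.9e-09). miR-101a-3p had a quite different balance: 5266 to 12240 CPM in liver and 7736 to 22670 CPM in brown fat. It was called higher in liver by TMM (-0.79, edgeR adjusted p = 0.0191) and higher in brown fat by total count (0.69), and the call by TMM was lost without liver library 1 and without brown fat libraries 1 and 3 (adjusted p = 0.053). In CPM the pair thus changes rank: miR-101b-3p is the more abundant entry in liver and miR-101a-3p in brown fat.

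miR-31-5p was low in both tissues and differed widely, with 188.2, 140.7, 110.8, 447.0 and 76.97 CPM in liver and 1.414, 2.064, 1.559, 8.999 and 5.447 CPM in brown fat (-6.90, SE 0.52, edgeR adjusted p = 3.62e-08). The epithelial miR-200 family had 4 tested entries, all higher in liver beside 28.8% of all tested, with a median log2 fold change of -3.28. By total count 3 of these were called higher in liver, and miR-200c-3p was not (-0.31). miR-200b-3p stood at 252.3 ± 80.62 CPM in liver and 40.25 ± 11.97 in brown fat (SD, n = 5 each), and miR-200a-3p at 359.0 ± 143.4 and 91.37 ± 30.23. miR-5099 (-3.01) and miR-185-5p (-2.22) were also higher in liver under all 3 scalings, and miR-340-5p was called by TMM (-1.80) but not by total count (-0.34). miR-802-5p, which is known from liver metabolism, had 178 counts in liver, 7.842 to 76.96 CPM, and 0 in brown fat. That is at least 240-fold higher in liver on the TMM scale and at least 91.3-fold by total count, taken at 3 counts over the group, and it did not pass the filter for the test.

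Of the hepatocyte list all 8 tested entries were higher in liver, against 28.8% of all tested entries, with a median of -5.95 beside 0.05. The list summed to 56.7% ± 3.48 of liver counts and 2.77% ± 0.387 of brown fat counts (SD, n = 5 each), of which miR-148a-3p made up nearly all in brown fat. The defining miRNAs of the labelled tissue were thus present at high levels in all 5 liver libraries.

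**Figure D3:**
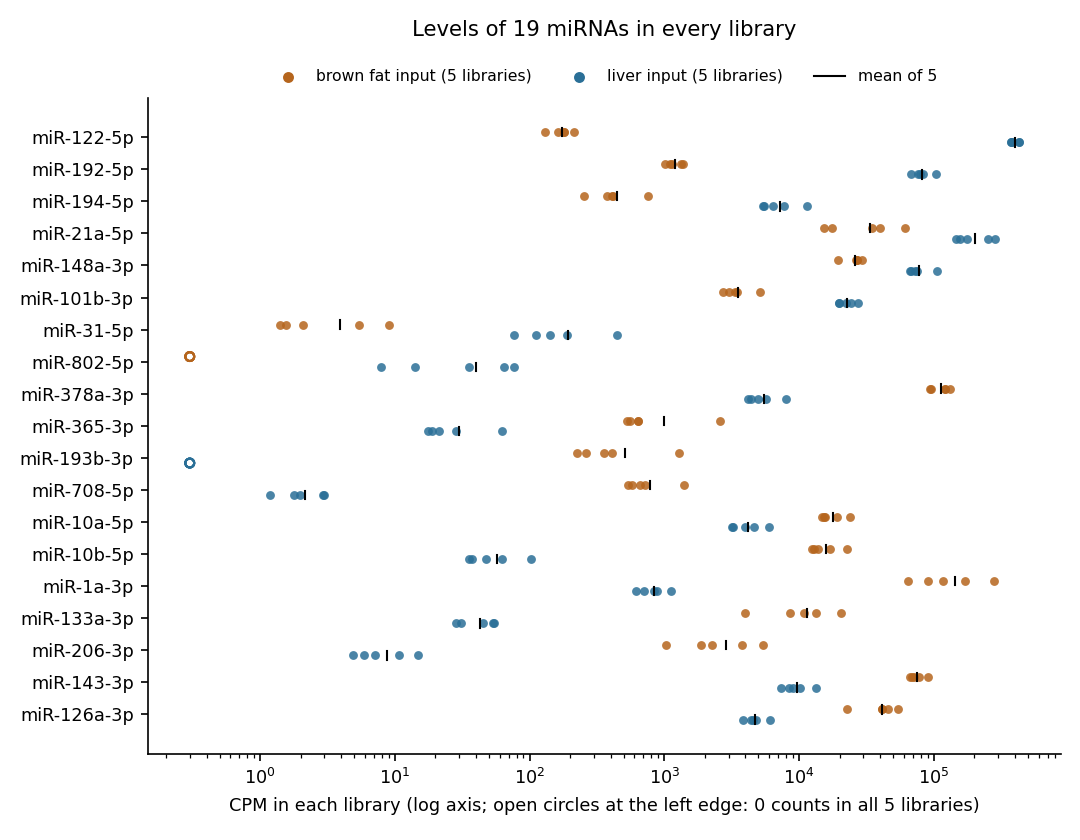
CPM in every library (log horizontal axis) for 19 miRNAs, brown points for brown fat and blue for liver, 5 libraries each, with a black bar at the mean and open circles where all 5 libraries hold 0 counts. The groups of the first 8 miRNAs lie with liver to the right and those of the other 11 with brown fat to the right, and miR-10a-5p and miR-10b-5p differ in how far apart the tissues lie.

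In brown fat, miR-378a-3p made up 9.36%, 12.2%, 12.1%, 13.1% and 9.52% of counts. In liver it made up 0.496%, 0.421%, 0.567%, 0.442% and 0.799%. The log2 fold change was 2.93 (SE 0.29, edgeR adjusted p = 5.64e-07), and 4.37 by total count. Its other arm miR-378a-5p stood at 494.4 to 1489 CPM in brown fat and 21.24 to 34.04 CPM in liver (3.71, SE 0.23). The related entries miR-378b, miR-378c and miR-378d were higher too, at 3.44, 3.32 and 2.68, and may share reads with miR-378a-3p.

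miR-193b-3p was counted 3456 times in brown fat and 0 times in liver. Its brown fat libraries held 224.8, 262.2, 406.8, 356.1 and 1283 CPM, library 5 far above the others. Taken at 3 counts over the liver libraries it was at least 285-fold higher in brown fat on the TMM scale and at least 749-fold by total count. Its opposite arm, miR-193b-5p, had 139 counts and 0, at least 11.4-fold higher on the TMM scale. miR-193a-3p, which shares its seed, was also higher in brown fat (2.37, SE 0.57, edgeR adjusted p = 0.0023), but it was detected in every liver library, at 2.368 to 29.6 CPM against 24.98 to 182.1 CPM in brown fat. miR-365-3p, read from both loci beside these miRNAs, stood at 633.4, 559.4, 531.5, 634.4 and 2605 CPM in brown fat and at 17.64 to 62.16 CPM in liver (3.62, SE 0.42, edgeR adjusted p = 3.77e-06). Library 5 was again the highest, and without it the log2 fold change was 3.09.

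The brown adipocyte list had 14 tested entries, of which 11 were higher in brown fat and 0 in liver, against 34.6% and 28.8% of all tested. The median was 1.48, and the same with the 2 entries that have 0 liver counts set to their lower bound. The list summed to 12.3% ± 1.66 of brown fat counts and 0.736% ± 0.156 of liver counts (SD, n = 5 each). Most of both sums was miR-378a-3p alone. miR-182-5p, an epithelial and sensory miRNA, was at 1857 ± 757.5 CPM against 205.6 ± 48.58 (1.74), and miR-455-3p, linked to brown adipogenesis, at 477.6 ± 202.7 against 82.57 ± 16.98 (1.10, SE 0.26). The 3 not called were miR-203-3p, miR-183-5p and miR-455-5p. For miR-455-5p the 95% interval of the log2 fold change was -0.33 to 1.01, and for miR-203-3p it was -0.18 to 0.71, although its brown fat libraries (2689 to 3318 CPM) all lay above its liver libraries (782.2 to 1133 CPM). By total count all 14 were higher in brown fat, beside 236 of all 312 entries. Of the miRNAs set as markers of brown adipocytes, miR-193b-3p, miR-365-3p and miR-378a-3p were higher in brown fat and present in all 5 of its libraries. The remaining marker, miR-455-5p, was not called.

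miR-708-5p, from an intron of Tenm4, stood at 655.1, 536.7, 579.1, 718.0 and 1398 CPM in brown fat. In liver it was near the limit of detection, at 1.184 to 2.96 CPM from 10 counts in all. The log2 fold change was 7.01 (SE 0.35, edgeR adjusted p = 4e-10). Its other arm miR-708-3p was higher by 4.15 (SE 0.24), at 388.5 ± 84.58 CPM against 8.144 ± 1.879 (SD, n = 5 each). Its seed mate miR-28a-5p stood at 254.5 ± 61.99 CPM in brown fat and 191.4 ± 48.51 in liver, was called higher in liver by TMM (-0.99) and was not called by total count (0.41). Among the inputs used for context, miR-708-3p stood at 881.5 ± 285.5 CPM in hypothalamus and 8.28 ± 1.582 CPM in muscle (SD, n = 5 each).

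The tested miRNAs of the Hox gene clusters, which mark position along the body axis, were called higher in brown fat, by very different amounts. miR-10b-5p made up 1.3%, 2.29%, 1.39%, 1.69% and 1.25% of brown fat counts. In liver it stood at 101.9, 35.4, 37.25, 47.36 and 62.76 CPM, so that the mean CPM differed 278-fold, with a log2 fold change of 6.68 (SE 0.37, edgeR adjusted p = 1.36e-09). miR-10a-5p, 1 base apart, made up 1.77% ± 0.381 of brown fat counts and 0.419% ± 0.115 of liver counts (SD, n = 5 each), with a log2 fold change of 0.66 (SE 0.22, edgeR adjusted p = 0.017), a call lost without liver library 2 and without brown fat libraries 1 and 3 (adjusted p = 0.0645). The 2 entries are thus about equal in brown fat, while in liver miR-10a-5p holds nearly all the counts of the pair. miR-615-3p, of the Hoxc cluster, had 999 counts in brown fat and 3 in liver, a ratio of 82.3 on the TMM scale (exact 95% interval 28.1 to 400) and 217 by total count (73.9 to 1050). All 5 tested entries of the list were higher in brown fat, beside 34.6% of all tested entries, and 4 were without brown fat libraries 1 and 3. The median was 6.30, or 3.74 with miR-10b-3p, which has 0 liver counts, at its lower bound. miR-196a-5p, of Hox genes active further back in the body, had 1 count in brown fat and 0 in liver, and 177.7 CPM in the muscle inputs, which are from gastrocnemius.

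The miRNAs of striated muscle were also high in brown fat, and they varied among its libraries. miR-1a-3p made up 28%, 6.4%, 16.9%, 11.8% and 9.07% of counts in brown fat libraries 1 to 5. In liver it stood at 889.9, 705.3, 836.1, 1113 and 620.5 CPM. The groups did not overlap, and the log2 fold change was 6.18 (SE 0.53, edgeR adjusted p = 1.3e-07), or 5.10 without brown fat libraries 1 and 3, an alternative planned with earlier results in view. The entry miR-1b-5p followed miR-1a-3p at a constant ratio in all libraries and is not a separate measurement. miR-133a-3p was highest in library 5 and not in library 1, at 10870, 4005, 13380, 8565 and 20510 CPM, against 28.42 to 54.76 CPM in liver (6.65, SE 0.44, edgeR adjusted p = 9.56e-09). miR-206-3p, which is found in skeletal muscle and its precursors and not in heart, was highest in library 4, at 2271, 1031, 3743, 5385 and 1885 CPM, against 4.901 to 14.8 CPM in liver (7.05, SE 0.53).

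All 7 tested entries of the striated muscle list were higher in brown fat, 6 when entries that share reads were counted once. Of all tested entries 34.6% were, and the median of the list was 6.18. The list summed to 38.7%, 9.05%, 24.4%, 17.1% and 14.4% of counts in brown fat libraries 1 to 5 and to 0.086% to 0.156% in liver. None of miR-1a-3p, miR-133a-3p and miR-206-3p, the defining markers, was at 0 in any library of either tissue. In the muscle inputs miR-1a-3p stood at 611500 CPM, miR-133a-3p at 25120 CPM and miR-206-3p at 4099 CPM. miR-499-5p, encoded in a myosin heavy chain gene of heart and slow muscle, ran the other way: 54.7 to 302.4 CPM in brown fat, a mean of 195.6, against 52.65 in the muscle inputs. miR-208b-3p, of another slow myosin gene, had a mean of 29.86 CPM in brown fat, 3.513 in muscle and 0 counts in liver. The part of muscle RNA in the differences of other miRNAs was not tested. Without brown fat libraries 1 and 3 the calls were 100 higher in brown fat and 94 in liver, and of these 95 and 85 were among the calls of all libraries.

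Markers of endothelium, of smooth muscle and fibroblasts and of red blood cells were higher in brown fat as well, and most leukocyte markers were not called. miR-126a-3p, of endothelium, made up 2.27%, 5.44%, 4.11%, 4.16% and 4.61% of counts in brown fat and 0.387% to 0.612% in liver (1.68, SE 0.18, edgeR adjusted p = 1.27e-06). The endothelium list holds 4 entries that represent 2 measured sequences, and all were higher in brown fat. miR-143-3p, of smooth muscle and fibroblasts, made up 7.52% ± 0.963 of brown fat counts and 0.966% ± 0.231 of liver counts (1.55, SE 0.21, edgeR adjusted p = 1.79e-05). Of its list 7 of 10 tested were higher in brown fat and 0 in liver, beside 34.6% and 28.8% of all tested, with a median of 0.71. Without brown fat libraries 1 and 3 the 7 became 5, nearer to that share. Among its members miR-199b-5p (2.91) and miR-145a-5p (2.40) differed most.

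All 7 entries of the red blood cell list, 5 with shared reads counted once, were higher in brown fat, and the list summed to 707.9 to 1682 CPM there and 29.41 to 136.2 in liver. miR-451a, the main miRNA of red cells, stood at 47.6, 122.8, 127.8, 112.5 and 579.0 CPM in brown fat and at 5.881 to 36.71 CPM in liver (1.56, SE 0.51, edgeR adjusted p = 0.016). That call was lost without brown fat library 5, where the log2 fold change was 0.83. miR-486a-5p, found in red cells and in muscle, was higher by 2.38 and stood at 260.7 CPM in the muscle inputs against 182.3 in brown fat and 13.8 in liver. Of the leukocyte list 2 of 9 tested were higher in brown fat and 1 in liver, no larger a share than the 34.6% and 28.8% of all tested entries. miR-150-5p, of mature lymphocytes, was at 748.7 ± 171.2 CPM in brown fat and 11.3 ± 10.7 in liver (SD, n = 5 each; 4.73, SE 0.44, edgeR adjusted p = 3.48e-07). The myeloid miR-223-3p and the pan-leukocyte miR-142a-5p were not called, with 95% intervals of 0.01 to 1.91 and -0.66 to 0.98. The part of these cells in the differences of other miRNAs was not tested.

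**Figure D4:**
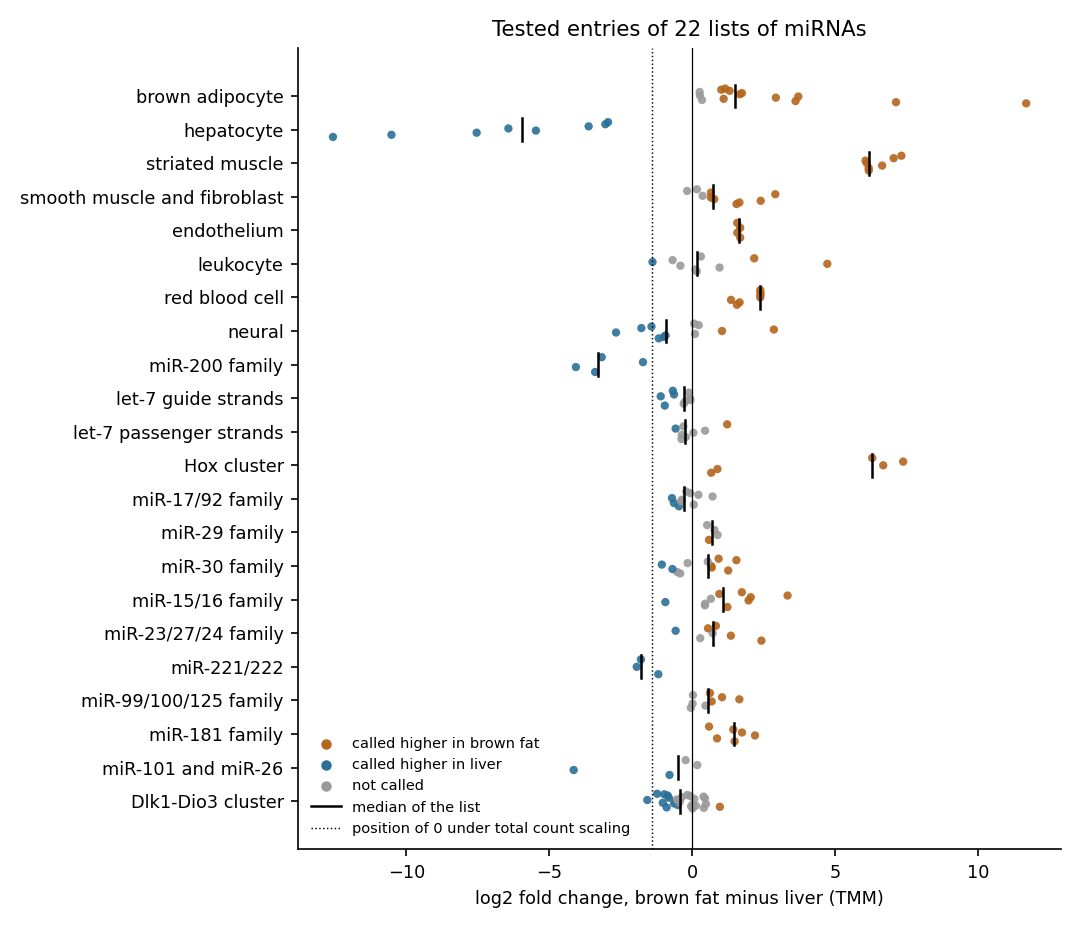
Log2 fold change, brown fat minus liver, on the TMM scale (horizontal axis) for the tested entries of 22 lists of miRNAs, coloured by call, with a black bar at each list's median and a dotted line at the place of 0 under total count scaling. The hepatocyte list has a median of -5.95 and the striated muscle list one of 6.18, and the medians of the let-7 guide strands (-0.30), the miR-17/92 family (-0.29) and the Dlk1-Dio3 cluster (-0.44) lie between the dotted line and 0.

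Families of miRNAs that are expressed in many tissues were counted in the same way. All 6 tested entries of the miR-181 family were higher in brown fat (median 1.46), as were 6 of 10 of the miR-15/16 family with 1 higher in liver (1.09), and 4 of 7 of the miR-23/27/24 family with 1 higher in liver (0.72). Of the miR-30 family 5 of 11 were higher in brown fat and 2 in liver (0.55), and of the family of miR-99, miR-100 and miR-125 4 of 8 and 0 (0.54). Higher in liver were 3 of 10 of the miR-17/92 family with 0 in brown fat (-0.29), 2 of 4 in the list of miR-101 and miR-26 with 0 in brown fat (-0.51), and all 3 of miR-221 and miR-222 (-1.80). Of the let-7 passenger strands 1 of 8 was called in each direction (-0.27), and of the miR-29 family 1 of 4 was higher in brown fat by TMM (0.68) and 0 by RLE. The 1 tested entry of the pancreas list, miR-375-3p, was higher in liver by TMM (-1.32) and had a positive value by total count (0.12), at 396.2 CPM in brown fat and 364.2 in liver. These counts stand beside 34.6% and 28.8% called over all entries. With total count 236 of all 312 entries were higher in brown fat. Of the miR-17/92 family 9 of 10 were, of the family of miR-99, miR-100 and miR-125 8 of 8, and of the miR-30 family 10 of 11.

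The direction of many abundant miRNAs depended on the scaling. let-7f-5p made up 2.34% of counts in brown fat and 1.95% in liver, with libraries that overlapped, and was called higher in liver by TMM (-1.10, SE 0.26, edgeR adjusted p = 0.0023) and not called by total count (0.26). let-7g-5p stood at 24150 to 35730 CPM in brown fat and 14260 to 19510 CPM in liver, so that all brown fat libraries were above all liver libraries in CPM, and it was called higher in liver by TMM (-0.64), a call lost without liver library 1 and without liver library 5, and higher in brown fat by total count (0.76). The let-7 guide strands, which rise as cells differentiate, summed to 8.56% ± 1.39 of counts in brown fat and 5.30% ± 0.764 in liver (SD, n = 5 each). Of 9 tested, 0 were higher in brown fat and 4 in liver by TMM (34.6% and 28.8% of all entries). By total count 7 and 0 were (236 and 24 of all 312). miR-27b-3p (-0.58 and 0.84) and miR-92a-3p (-0.71 and 0.68) likewise changed sides between TMM and total count and were called under both. For these miRNAs no direction holds under both scalings.

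Abundant miRNAs that were not called by TMM were miR-30a-5p, miR-26a-5p, miR-26b-5p, miR-22-3p, miR-30d-5p, miR-152-3p, miR-99a-5p, let-7b-5p, let-7c-5p, let-7d-5p and let-7i-5p, each above 1000 CPM in both tissues. miR-30a-5p stood at 3.64% of counts in brown fat and 1.82% in liver (log2 fold change -0.42, 95% interval -0.85 to 0.01). miR-26a-5p stood at 2.65% and 0.899% (0.18, 95% interval -0.23 to 0.59). By total count all 11 were called higher in brown fat, as were 236 of all 312 entries.

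Among the tested entries with a sequence, 255 after shared reads were counted once, there were 203 seeds, of which 28 were shared by at least 2 tested entries. In 4 of these 28 all members were higher in brown fat, in 6 all were higher in liver, in 4 there were calls in both directions, and in 1 no member was called. With 34.6% and 28.8% of entries called higher in each tissue, these counts are a description and no test was made of them.

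The seed AGGAGCU has miR-708-5p and miR-28a-5p on opposite sides by TMM, at 7.01 and -0.99. The seed UCACAGU has miR-27a-3p at 1.35 and miR-27b-3p at -0.58, and miR-27a-3p alone kept its direction by total count (2.82). In AUUGCAC, miR-32-5p was higher in brown fat (1.15) and miR-92a-3p and miR-92b-3p (-0.91) higher in liver by TMM, with miR-25-3p not called. In CAGUGCA, miR-148a-3p had -3.04, miR-148b-3p -1.34 and miR-152-3p -0.06. In CPM, miR-148b-3p was nearly level, at 1468 ± 171.2 in brown fat and 1359 ± 164.2 in liver (SD, n = 5 each), and miR-152-3p stood at 4932 ± 673.3 and 1903 ± 173.3. The members of this seed, bases 2 to 8 being equal, are those whose sequences differ from base 9 on as given above.

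Summed over the tested members of a seed, the balance between the tissues was as follows. The seed of miR-192-5p and miR-215-5p held 0.121% of brown fat counts and 8.23% of liver counts, and that of miR-148a-3p, miR-148b-3p and miR-152-3p 3.22% and 8.11%. The miR-10 seed held 3.36% of brown fat counts and 0.425% of liver counts. The 3 members of the miR-30 seed GUAAACA that have a sequence held 7.26% and 2.53%: miR-30e-5p (1.55, SE 0.23) and miR-30c-5p (0.68, SE 0.17) were higher in brown fat, and miR-30a-5p was not called. The members of AGCAGCA, the miR-15/16 seed that acts on cell-cycle genes, ran from 0.44 to 3.34, with miR-322-5p the highest at 335.5 ± 149.4 CPM against 12.14 ± 7.061 (SD, n = 5 each). All 4 tested members of the miR-181 seed were higher in brown fat, led in level by miR-181a-5p at 1663 CPM against 225.3 CPM (1.48, SE 0.18).

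**Figure D5:**
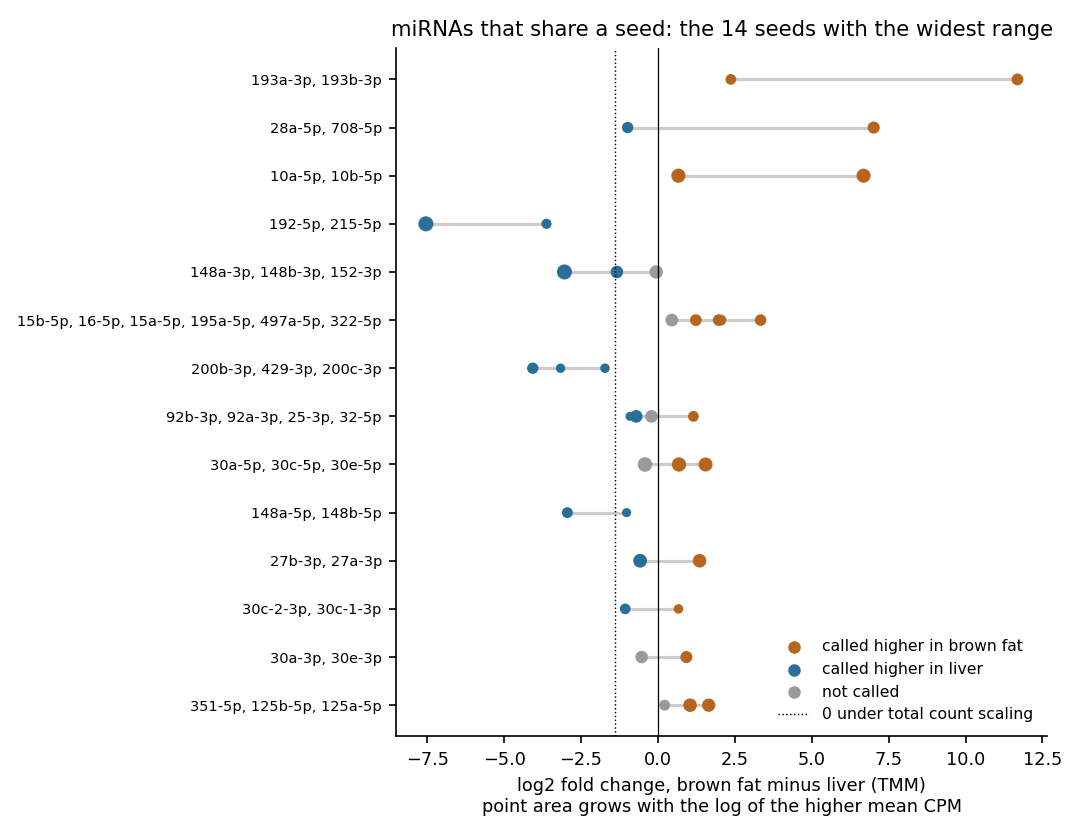
Log2 fold change, brown fat minus liver, on the TMM scale (horizontal axis) of the tested members of the 14 seeds with the widest range, 1 row for each seed with its members named in order, coloured by call, with point area growing with the log of the higher mean CPM. miR-708-5p and miR-28a-5p lie at 7.01 and -0.99 and miR-10b-5p and miR-10a-5p at 6.68 and 0.66, and the place of miR-193b-3p depends on the prior count because it has 0 liver counts.

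miRNAs whose hairpins lie close together on one strand are often cut from one transcript. With hairpins at most 10000 bases apart, 86 tested entries fell into 21 such clusters. In 4 clusters all tested entries were higher in brown fat and in 4 all were higher in liver, in 0 were there calls in both directions, and in 2 no entry was called. The median range of log2 fold changes within a cluster was 0.99. Many clusters hold only 2 or 3 tested entries, some of them 2 arms of 1 hairpin. Over all tested entries 34.6% were called higher in brown fat and 28.8% in liver. The cluster counts and the range are a description, and no test was made of them. The clusters wholly higher in brown fat were miR-206 with miR-133b, miR-144 with miR-451a, miR-30c-1 with miR-30e, and a cluster on chromosome X (chrX:53047997-53054349, GRCm38) with 7 tested entries of miR-322, miR-503, miR-542 and miR-450b, which ran from 0.69 to 3.34. The clusters wholly higher in liver were miR-192 with miR-194-2, miR-200a with miR-200b and miR-429, miR-221 with miR-222, and miR-341 with miR-370. By total count the first 2 of these 4 were still wholly higher in liver. miR-341-3p, at 53.89 CPM in brown fat and 30.73 in liver, was -0.64 by TMM and was called higher in brown fat by total count (0.81), and miR-370-3p, at 24.95 and 19.1 CPM, was -1.03 by TMM and not called by total count (0.39). miR-221-3p (227.0 CPM in brown fat, 195.8 in liver) and miR-222-3p (107.5 and 136.9 CPM) were called higher in liver by TMM (-1.19 and -1.80) and by total count neither was called.

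In the cluster of miR-23a, miR-27a and miR-24-2 on chromosome 8, 3 of 4 tested entries were higher in brown fat. miR-23a-3p stood at 2481, 1554, 1112, 1678 and 3789 CPM in brown fat and 74.5 to 260.5 CPM in liver (2.42, SE 0.31, edgeR adjusted p = 8.18e-06), and miR-27a-3p was higher by 1.35 (SE 0.20). Of the imprinted Dlk1-Dio3 cluster, which is active in development and in brain, 27 entries were tested: 1 was higher in brown fat and 10 in liver by TMM, and 20 and 0 by total count. Of all 312 entries 34.6% and 28.8% were called by TMM, and 236 and 24 entries by total count, so the share higher in liver by TMM and the share higher in brown fat by total count were near those of all entries. The whole list summed to 0.444% ± 0.0584 of brown fat counts and 0.193% ± 0.0192 of liver counts (SD, n = 5 each). miR-127-3p, its most abundant member, stood at 2042 and 763.5 CPM with a log2 fold change of 0.01.

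The neural list summed to similar levels in both tissues, 7318 ± 1520 CPM in brown fat and 7277 ± 1440 CPM in liver (SD, n = 5 each). Most of this was miR-7a-5p, at 4064 and 5149 CPM, and miR-7b-5p, at 1103 and 1097 CPM. Of 11 tested, 2 were higher in brown fat and 6 in liver by TMM (34.6% and 28.8% of all entries), and 5 and 1 by total count (236 and 24 of all 312). miR-9-5p stood at 610.8 and 457.1 CPM and miR-124-3p at 23.65 and 19.44 CPM. In the hypothalamus inputs the means of miR-7a-5p, miR-7b-5p, miR-9-5p and miR-124-3p were 158000, 45110, 90650 and 5638 CPM.

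The 2 arms of a hairpin are read in the same library, so the scaling between libraries does not enter their ratio. With a pseudocount of 0.5 on each arm, though, the ratio follows depth and the level of the major arm where the minor arm is near 0. Tested were 78 hairpins with at least 50 counts of both arms together in every library. Of these, 17 differed in the log2 ratio of 5p to 3p (exact permutation test, Benjamini-Hochberg adjusted, 21.8%). The ratio was higher in brown fat for 7 (8.97%) and lower for 10 (12.8%). Among the 17 were hairpins with almost no reads of the minor arm. miR-375 had 0% of 5p in every library. miR-328 and miR-107 had the lower ratio in brown fat, though their mean 5p share was higher there (0.00573% against 0%, and 0.126% against 0.0498%). With single libraries left out the number ran from 0 to 17. It was 0 without brown fat library 5 and without each of liver libraries 1, 2, 3 and 5. Fewer libraries allow fewer arrangements, so p comes in coarse steps. Many hairpins must then reach the lowest p together before any passes the adjustment. A number of 0 here therefore does not show that the differences were lost. A stricter condition, chosen after the data were seen, asked for at least 50 counts of the less abundant arm over each tissue. It left 38 hairpins, of which 0 passed. Of these 38, 5 reached the smallest p that 5 against 5 libraries allow (exact permutation p = 0.00794, adjusted p = 0.0603), and 14 had an unadjusted p under the threshold. These 5 hairpins are described by their values only.

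For miR-145a the 5p arm made up 62.3%, 42.5%, 48.1%, 49.4% and 71.8% of the counts of both arms in brown fat and 30.3%, 24.7%, 24.5%, 27.1% and 36.1% in liver. The 5p arm thus held more than the 3p arm in 2 of 5 brown fat libraries and in 0 of 5 liver libraries, and the groups did not overlap. For miR-203 the 5p arm made up 8.45% ± 1.32 in brown fat and 3.31% ± 0.785 in liver, and for miR-30b 95.4% ± 2.5 and 86.3% ± 3.43 (SD, n = 5 each). For miR-411, of the Dlk1-Dio3 cluster, it made up 86.4% ± 3.58 and 73.1% ± 5.06, and for miR-340 89.1% ± 1.06 and 92.5% ± 0.964. In miR-340 alone of these 5 the 5p share was higher in liver.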

How the data were processed

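Expected counts (an estimated count for every mature miRNA entry and library) were deposited by the authors in 1 table. Only 18.9% of positive values were whole within 0.001. Per the submitters' processing notes, fastp, STAR, featureCounts and the build mm10 were used. The sources used here do not give their versions, the set of miRNAs annotated, the strandedness of counting or what was done with reads that match several entries. All 10 libraries were in sequencing pool 1. Counts were rounded to whole numbers, which moved a library total by at most 0.00824%, and 0 columns lacked a sample.

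Tests ran in R 4.3.3 with edgeR 4.0.16 (filterByExpr by tissue, TMM, quasi-likelihood, two-sided) on the 10 libraries alone. The script was tested on simulated data. Replicate numbers are the same mouse in both tissues only for number 2. Entries that share reads were found by an SD of their log2 ratio under 0.05, which gives 22 pairs, and 1 entry of each is dropped where reads are counted once. Arm ratios used a pseudocount of 0.5. Alternatives were RLE, total count, filters, DESeq2 1.42.0, limma 3.58.1 (voom), a test against a 2-fold change, all 20 inputs and libraries left out.

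The miRNAs named are the 10 most abundant per tissue, the 15 largest differences in each direction among those called with at least 100 CPM, the 4 most abundant of each of 23 lists, and those not called with at least 1000 CPM in both tissues. Others, such as seed, arm and cluster partners, were chosen after their values were seen. The rule selects more miRNAs than the text prints. The members and lists were chosen with earlier results of these data known.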

Additional observations from a re-analysis of the deposited data

Results flagged for a closer look

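Of 198 groups of 5 libraries examined (the named miRNAs by tissue, with a highest level of at least 10 CPM), 15 had 1 library whose gap to the nearest of the others exceeded 0.71 of the whole range. Chance flags about 1 in 20 such groups, here 9.9. Brown fat library 5 gave 4 of the 15 and liver library 4 another 4.

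In brown fat library 5, miR-365-3p stood at 2605 CPM against 634.4 in the next library, miR-193b-3p at 1283 against 406.8, miR-708-5p at 1398 against 718.0 and miR-451a at 579.0 against 127.8. In brown fat library 1 the lowest values were those of miR-148a-3p (19630 against 26650 CPM), miR-24-3p (2030 against 3566) and miR-340-5p (207.4 against 370.5). In brown fat library 2 the highest were those of miR-26a-5p (36690 against 24830 CPM) and miR-25-3p (2415 against 1729).

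In liver library 4 the highest values were those of miR-29b-3p (725.2 against 264.6 CPM), miR-128-3p (589.0 against 421.5), let-7a-1-3p (148.0 against 108.9) and miR-365-3p (62.16 against 28.42). In liver library 5 miR-148a-3p stood at 106300 CPM against 75060, and in liver library 2 miR-27a-3p at 1166 against 907.0.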

How the results depend on the processing

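Total count scaling gave 236 miRNAs higher in brown fat and 24 in liver (108 and 90 by TMM), and a test against a 2-fold change gave 52 and 39. With single libraries left out, the counts ran from 98 to 112 and from 82 to 98. With no filter 151 and 106 were called, of which 108 and 64 were among the 108 and 90 by TMM. With all 20 inputs 117 and 87 were called, of which 102 and 70 were among them. Fewer of the liver calls than of the brown fat calls were thus kept in these 2 settings. In number, the other settings stayed within 1.5 times the counts by TMM. With the replicate block, 109 and 88 were called, of which 104 and 86 were shared. Only replicate 2 is the same mouse. Deviations of same-numbered libraries correlated at 0.258, 0.124, 0.136, -0.178 and -0.193. For numbers 1, 2 and 3 each library correlated best with its own number in the other tissue, and for 4 and 5 this did not hold. Whether the numbers pair the libraries beyond replicate 2 was not tested. Of 109 tested miRNAs that the naming rule selects, 29 reversed sign, all under total count: let-7a-1-3p (1.05), let-7a-5p (0.41), let-7b-5p (1.15), let-7c-2-3p (1.06), let-7c-5p (1.19), let-7d-5p (1.28), let-7f-2-3p (1.12), let-7f-5p (0.26), let-7g-5p (0.76), let-7i-5p (1.28), miR-101a-3p (0.69), miR-146a-5p (0.05), miR-152-3p (1.37), miR-20a-5p (1.00), miR-22-3p (0.98), miR-221-3p (0.22), miR-25-3p (1.22), miR-26b-5p (1.12), miR-27b-3p (0.84), miR-30a-5p (1.00), miR-30d-5p (1.26), miR-375-3p (0.12), miR-379-5p (0.92), miR-541-5p (0.44), miR-7b-5p (0.01), miR-9-5p (0.42), miR-92a-3p (0.68), miR-93-5p (1.34) and miR-99a-5p (1.36). The 17 hairpins called for arm balance became 32 with a pseudocount of 5 and 8 with at least 200 counts. They became 0 to 17 with single libraries left out and 0 without brown fat libraries 1 and 3. With fewer libraries the exact p comes in coarser steps, so a 0 there does not show that the differences were lost. With the minimum for the less abundant arm, chosen after seeing the data, 0 were called. limma on the log2 ratios called 23. Where no cause follows from a setting itself, the cause was not tested. Folds of miRNAs with 0 to 3 counts in a tissue are limited by depth.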

Other observations

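Some miRNAs below the level at which the rule names them, chosen after their values were seen, also separated the tissues. miR-1948-5p had 348 counts in liver, at 36.26 to 127.3 CPM, and 1 count in brown fat, a ratio of 1410 on the TMM scale (exact 95% interval 251 to 55800) and of 535 by total count (95.4 to 21200). Its other arm, miR-1948-3p, had 155 counts in liver and 0 in brown fat, at least 209-fold higher in liver on the TMM scale and at least 79.5-fold by total count, at 3 counts over the group. In the muscle inputs the arms stood at 0.1841 and 0.1865 CPM. The minor arm miR-101b-5p, at 16.79 ± 6.479 CPM in liver and 1.205 ± 0.9188 in brown fat (SD, n = 5 each), was higher in liver (-5.20, SE 0.50), as its abundant partner miR-101b-3p was.

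Of the brown adipocyte list, miR-203-3p, miR-182-5p and miR-455-3p were lower in the muscle inputs of the series than in either tissue compared here. Mean CPM in brown fat, liver and muscle were 3010, 959.1 and 28.09 for miR-203-3p, 1857, 205.6 and 7.585 for miR-182-5p, and 477.6, 82.57 and 5.982 for miR-455-3p. For miR-193b-3p they were 506.6, 0 and 6.618, so that muscle held a low level and liver was listed at 0. These levels were set side by side without a test. The muscle levels of miR-378a-3p and miR-365-3p, also of the list, are not given. The members shown were picked and do not stand for the whole list, of which miR-378a-3p is the most abundant in brown fat.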
